A study of Mus musculus with 29 samples.

Results

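Acute colitis of the mouse colon, caused by dextran sodium sulphate (DSS), was compared with the colon of untreated mice. The comparison used 9 of the 29 arrays of the series, 1 per mouse: 4 arrays labelled acute colitis (B2, B3, B4 and C3) against 5 arrays labelled control (A1, A2, A5, L1 and L2), as the labels assign them. The acute colitis mice had drunk DSS for 7 days and were killed with no time to recover, while the control mice drank plain water throughout. 5 mice labelled 1 cycle DSS, which had the same 7 days of DSS and then 2 weeks of plain water, are set beside them where stated. All were female C57BL6J mice, and the labels name no transgene or deletion. The labels give an age of 6 weeks, which by the study's methods was the age at the start, so that the mice were older, and matched in age, when killed. RNA came from snap-frozen colon, taken by the study's methods from the distal colon where it was most infiltrated. How a matching piece was chosen in control mice is not given in the sources used here. 1 further acute colitis array that the study describes was not used here. The values are log2 expression values of probe sets, groups of short DNA probes on the array that mostly belong to 1 transcript, so that a difference of 1 is a fold change of 2. Per-array values below are given for acute colitis in the order B2, B3, B4, C3 and for control in the order A1, A2, A5, L1, L2.

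DSS is a sulphated sugar polymer that damages the lining of the colon when it is drunk, so that gut bacteria come into contact with the tissue below. The damaged colon is known to recruit neutrophils and monocytes, to make interleukin-1, interferon gamma and chemokines, and to switch its epithelium from salt and water uptake toward antimicrobial defence. The model needs no lymphocytes to start, and the gut heals over the following weeks once the polymer is withdrawn.

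The tissue was checked first. Of 11 measured markers of colon epithelium, among them the keratin Krt20 and the transcription factor Cdx2, 0 were called in either direction, and their mean log2 value was 10.99 to 11.49 in acute colitis arrays and 11.13 to 11.32 in control arrays. Array medians lay between 6.02 and 6.14. Correlations across probe sets were 0.966 to 0.984 among acute colitis arrays, 0.983 to 0.992 among control arrays and 0.943 to 0.983 between them. The acute colitis arrays divide at a probe set with no gene listed. It was picked from all probe sets for the widest gap in its sorted values. The choice needed at least 10 arrays of the series on each side and some group divided. A divided group was thus a condition of the choice. The probe set stood at 7.13, 7.73, 11.09 and 11.47 in acute colitis and at 7.26 to 8.14 in controls. By this probe set B2 and B3 resemble the controls and B4 and C3 do not. At Hoxb13 and Tgm3, described below, B2 and B3 lay farther from the controls than B4 and C3. The sources used here give no batch for the division at this probe set. It is called the array set below, and results were also computed with acute arrays B2 and B3 alone against all controls. In whole tissue, fewer cells of a type and less RNA per cell cannot be told apart.

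Of 35511 probe sets, 489 passed as higher in acute colitis (1.38%) and 496 as lower (1.4%) when set against control, at an adjusted p under 0.05 from limma and a fold change above 2. Reduced to 19938 genes with 1 symbol each, represented by their brightest probe set, 360 genes were higher (1.81%) and 330 lower (1.66%). The median log2 fold change of all genes was 0.03. The 4 acute values lay entirely above or below the 5 control values for 305 of the 360 higher genes and 301 of the 330 lower genes. Over all genes that was so for 9.66% upward and 11% downward. With the low array set only, B2 and B3 against the controls, 494 probe sets were higher and 347 lower.

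**Figure D1:**
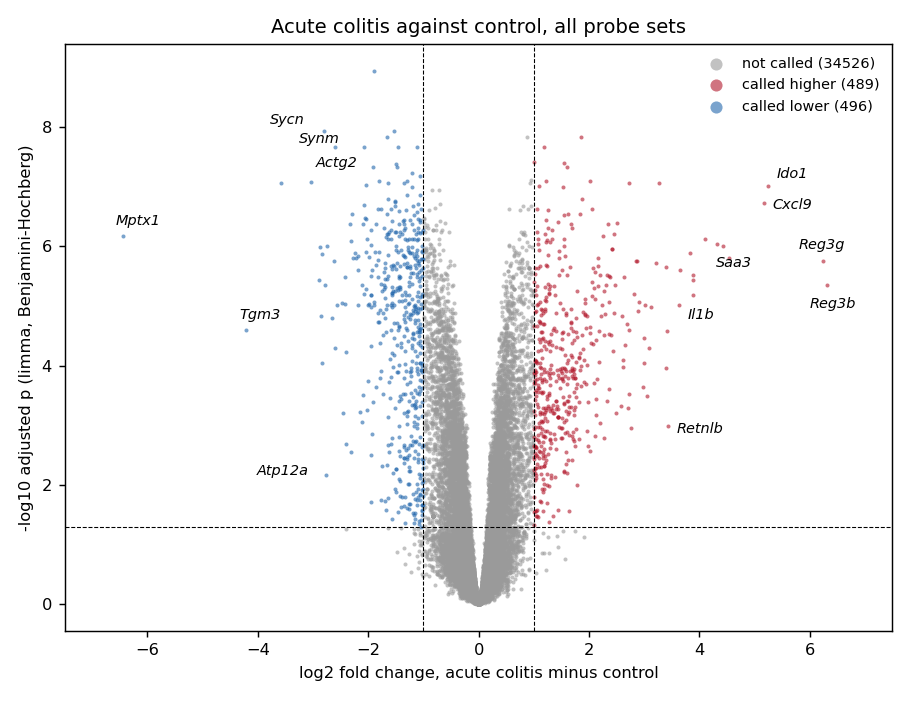
Each point is 1 of 35511 probe sets, with the log2 fold change of acute colitis minus control on the x axis and minus log10 of the limma adjusted p on the y axis. Dashed lines mark the thresholds, red points the 489 called higher and blue points the 496 called lower; the farthest points are Reg3b, Reg3g, Ido1 and Cxcl9 on the right and Mptx1 and Tgm3 on the left.

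The largest rises belonged to defence lectins, interferon-induced enzymes, chemokines and tissue proteases, and the largest falls to surface epithelium genes, detoxifying enzymes and transporters. Reg3b and Reg3g, secreted antimicrobial C-type lectins, led the rises. Reg3b stood at 12.63, 12.89, 6.55 and 11.65 in acute colitis, against 4.41, 4.91, 4.74, 4.55 and 4.46 in controls. B4 was far below the other acute colitis arrays yet still above every control. This was a log2 fold change of 6.32, or 79.7-fold (limma adjusted p = 4.36e-06, standard error 0.84). The SD of Reg3b was 2.97 in acute colitis and 0.21 in controls. Standard errors and p-values here and below use a spread shared by all groups of the series, not the acute colitis spread alone. Reg3g had the same pattern, with 11.99, 12.47, 6.54 and 11.45 in acute colitis and 3.45, 5.25, 4.30, 4.43 and 4.38 in controls (log2 fold change 6.25, standard error 0.77, adjusted p = 1.78e-06 from limma). Without B4 the log2 fold changes were 7.78 for Reg3b and 7.61 for Reg3g, and without B3 they were 5.66 and 5.63. With B2 and B3 alone against the controls they were 8.15 and 7.87.

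Ido1, which breaks down tryptophan, was high in all 4 acute colitis arrays. It had 8.70, 10.48, 10.45 and 10.24 there, against 4.46, 4.99, 4.51, 4.95 and 4.72 in controls (log2 fold change 5.24, standard error 0.50, adjusted p = 9.48e-08 from limma). Clca4b, a calcium-activated chloride channel regulator family member, varied little between acute colitis mice. Its values were 10.77, 11.44, 10.97 and 11.74 in acute colitis and 6.01, 6.94, 7.04, 7.01 and 6.46 in controls, a log2 fold change of 4.53 (standard error 0.55). Mfsd2a, a lipid transporter, stood at 9.37 ± 0.52 in acute colitis (SD, n = 4) and 6.10 ± 0.29 in controls (SD, n = 5). Lrg1, a secreted glycoprotein induced in inflamed tissue, stood at 9.92 ± 1.14 in acute colitis and 5.61 ± 0.15 in controls, a log2 fold change of 4.31 (3.60 with B2 and B3 alone). Acod1, the itaconate-making enzyme of activated macrophages, had 6.11, 10.93, 8.82 and 8.55 in acute colitis against 5.19 to 5.78 in controls. B3 was highest, B2 lowest, and B4 and C3 lay between. Its log2 fold change of 3.10 was 2.32 without B3 and 3.93 without B2.

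**Figure D2:**
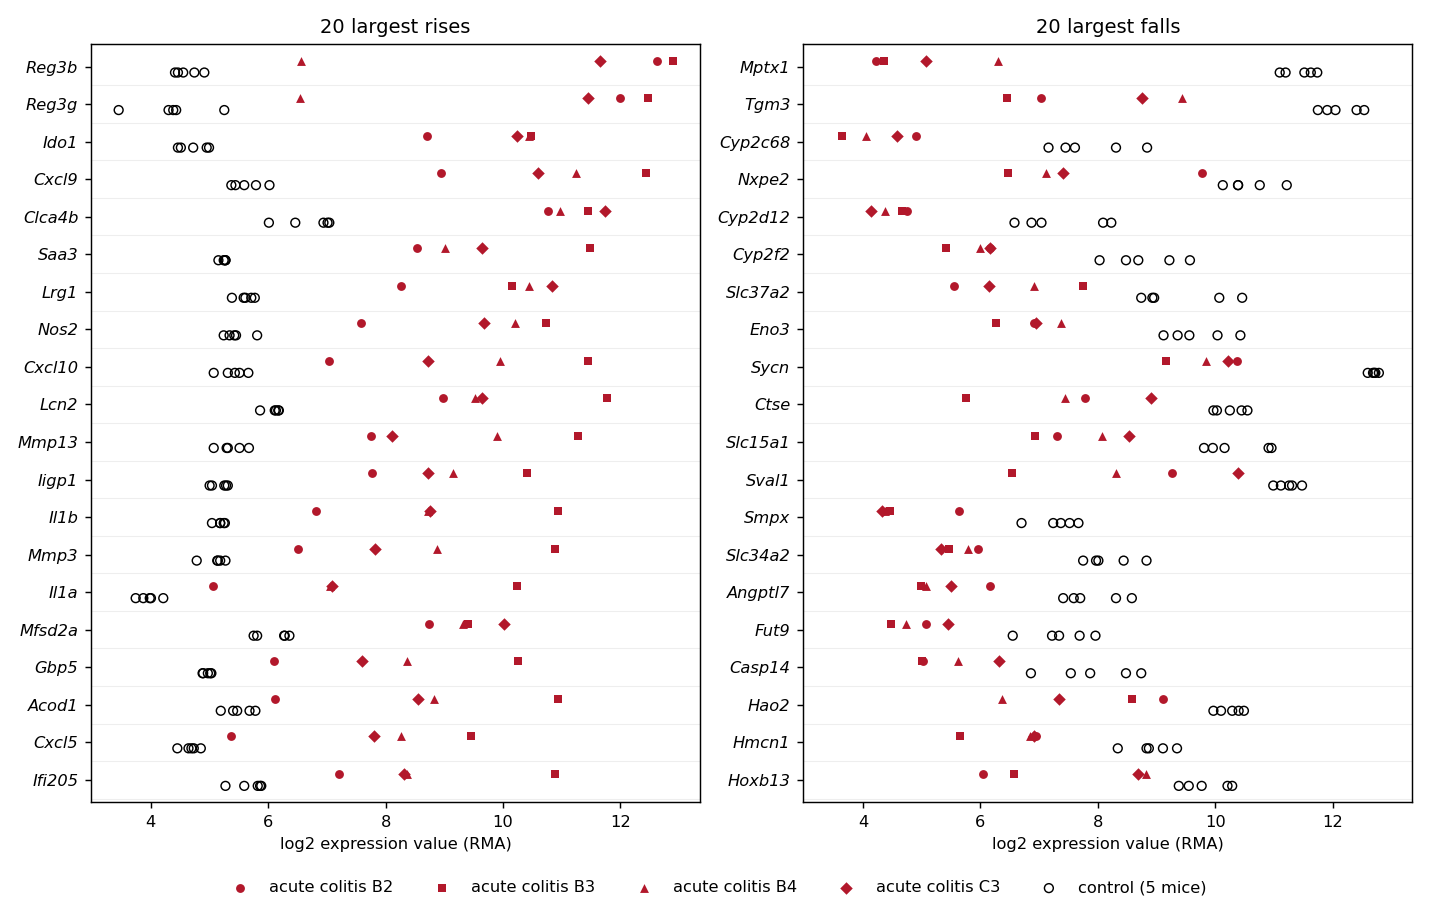
Log2 expression values of the 20 genes with the largest rises (left) and the 20 with the largest falls (right) that were called and had no overlap between the groups, with 1 red symbol per acute colitis array and open circles for the 5 control arrays below them. Reg3b and Reg3g are rises for which B4 lies far from the other acute colitis arrays, and Hoxb13 and Tgm3 are falls for which B2 and B3 lie below B4 and C3.

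Of 20 genes of epithelial antimicrobial defence, 9 rose and 2 fell. Beside the Reg3 lectins, Nos2, the inducible nitric oxide synthase, had 7.58, 10.74, 10.20 and 9.68 in acute colitis against 5.34, 5.81, 5.45, 5.24 and 5.42 in controls (log2 fold change 4.10, standard error 0.47, adjusted p = 7.34e-07 from limma). B2 again was the lowest of the acute colitis arrays, and without it the log2 fold change was 4.75. Retnlb, a bactericidal product of goblet cells, differed widely between control mice. It had 11.17, 9.79, 7.49 and 9.87 in acute colitis and 3.52, 7.29, 6.23, 8.51 and 5.19 in controls. The groups overlapped, and the call (log2 fold change 3.43, adjusted p = 0.00102 from limma) rests on a mean whose value was 2.77 without control A1, 4.02 without control L1 and 4.13 without B4 (4.33 with B2 and B3 alone). The members that fell, named here after their values were seen, were Ang4, an antimicrobial ribonuclease of crypt cells, at a log2 fold change of -1.77, and Reg4, a lectin of secretory cells, at -1.70. Both calls were lost with B2 and B3 alone and with the array set in the model, where 0 members were lower.

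Of 23 measured cytokines, 8 were called higher, 0 lower and 15 not at all, and the count of higher members was 5 without B3. Il1b, the main inducible form of interleukin-1, had 6.81, 10.93, 8.73 and 8.76 in acute colitis against 5.04, 5.18, 5.24, 5.18 and 5.26 in controls (log2 fold change 3.63, standard error 0.51, adjusted p = 9.59e-06 from limma). Il1a, the form released from damaged cells, had 5.05, 10.23, 7.05 and 7.09 in acute colitis against 3.87, 3.98, 4.0, 3.74 and 4.21 in controls (3.40, standard error 0.59). For each of them every acute colitis array was above every control. Il11, a fibroblast cytokine that signals through gp130, had 5.91, 8.81, 7.87 and 6.52 in acute colitis and 5.01 to 5.33 in controls (2.14, standard error 0.34). Il6, which signals through the same receptor chain, was close to the controls in B2. It stood at 3.74, 8.91, 5.75 and 4.91 in acute colitis against 3.53 to 3.56 in controls, a log2 fold change of 2.28. Without B3 the log2 fold change was 1.25 for Il6, 2.44 for Il1a and 2.92 for Il1b, and without B2 it was 2.97, 4.17 and 4.29 for the same genes in that order.

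Some chemokines that draw neutrophils, monocytes and T cells rose. Of 14 CXC chemokines 6 rose and 0 fell, and of 17 CC chemokines 6 rose and 1 fell. Cxcl9, a ligand of the T cell receptor Cxcr3 that interferon gamma induces, had 8.95, 12.43, 11.24 and 10.60 in acute colitis against 5.37, 6.02, 5.59, 5.44 and 5.79 in controls (log2 fold change 5.16, standard error 0.52, adjusted p = 1.87e-07 from limma). Its log2 fold change was 5.78 without B2. Cxcl10, another Cxcr3 ligand, had 7.03, 11.45, 9.95 and 8.72 in acute colitis and 5.51, 5.66, 5.31, 5.07 and 5.43 in controls, and its log2 fold change of 3.89 was 3.17 without B3 and 4.64 without B2. B2 was the nearest to the controls and B3 the farthest from them. Cxcl5 and Cxcl2 attract neutrophils through Cxcr2. Cxcl5 had 5.37, 9.46, 8.27 and 7.80 in acute colitis and 4.45 to 4.85 in controls (3.06, standard error 0.58, adjusted p = 0.000325 from limma, and 3.84 without B2). Cxcl2 had 4.66, 9.55, 7.39 and 6.03 in acute colitis and 4.03 to 4.27 in controls, and its log2 fold change of 2.76 was 1.88 without B3 and 3.51 without B2. Ccl2, which draws monocytes through Ccr2, had 6.58, 10.57, 8.41 and 7.79 in acute colitis against 5.57 to 5.89 in controls, a log2 fold change of 2.66 (1.91 without B3). Ccl8, an inflammatory monocyte chemokine, moved with less spread, with 6.11, 7.49, 7.08 and 6.91 in acute colitis and 4.63 to 4.97 in controls (2.11, standard error 0.27, adjusted p = 2.63e-06 from limma). The member that fell, named after its value was seen, was Ccl6, at a log2 fold change of -1.12, and its call was lost with B2 and B3 alone and without B4.

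Most markers of neutrophils and of recruited monocytes were called higher. Of 17 neutrophil genes 11 rose and 0 fell, with a list median log2 fold change of 1.69 beside 0.03 for all genes. Clec4e, a receptor for microbial glycolipids on neutrophils and macrophages, had 4.81, 9.88, 6.87 and 7.77 in acute colitis against 4.21 to 4.48 in controls (log2 fold change 2.98, adjusted p = 0.000226 from limma). S100a9, a subunit of the neutrophil protein calprotectin, had 6.30, 10.01, 7.14 and 7.26 in acute colitis against 5.03 to 5.34 in controls (2.49, adjusted p = 0.000617 from limma). Cxcr2, the receptor for Cxcl2 and Cxcl5, had 4.51, 8.02, 6.07 and 6.19 in acute colitis against 3.74 to 4.01 in controls (2.36). All 3 genes were above every control in each acute colitis array, by little in B2 and by most in B3. Without B3 their log2 fold changes were 2.13, 1.72 and 1.76. The mean of the whole list was 5.85, 8.20, 6.71 and 7.05 in acute colitis and 5.39 to 5.53 in controls. Of 10 recruited monocyte genes 8 rose, with a list median of 1.61. Fcgr4, an activating receptor for immunoglobulin G, had 6.24, 9.22, 7.58 and 7.28 in acute colitis and 4.61 to 4.86 in controls (2.85, standard error 0.35, adjusted p = 1.77e-06 from limma). Chil3, a chitinase-like protein, rested most on 1 mouse, with 4.58, 8.59, 5.19 and 4.91 in acute colitis against 3.58 to 3.91 in controls. Its log2 fold change of 2.12 was 1.20 without B3 and 2.89 with B2 and B3 alone.

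A minority of resident macrophage, lymphocyte and mast cell markers were called, and most of these calls were lost without B3. Of 11 resident macrophage genes 3 rose, beside 1.81% of all genes: Csf1r, C1qa and C1qb, with log2 fold changes of 1.21, 1.06 and 1.04. Without B3 the count was 0, and these 3 stood at 0.95, 0.93 and 0.87. By adjusted p alone, with no fold threshold, 5 of the 11 were higher and 3 lower. Of 19 T and NK cell genes 4 rose, led by the cytotoxic granule protease Gzmb at 5.38, 7.48, 5.82 and 5.67 in acute colitis against 4.60 to 4.72 in controls (log2 fold change 1.44, and 0.98 without B3). Without B3 the count of this list was 0 as well. All 19 stood above 0, and 11 had no overlap between the groups, beside 9.66% of all genes upward. By adjusted p alone 16 of the 19 were higher, beside 13% of all genes. Of 15 B cell genes 0 were called against control, and the list mean spanned 5.41 to 6.41 in acute colitis and 5.31 to 6.15 in controls. Jchain, which joins secreted immunoglobulins, was the plasma cell gene that fell. It had 7.18, 8.60, 7.44 and 7.87 in acute colitis against 9.49, 9.60, 8.65, 9.04 and 9.49 in controls (log2 fold change -1.48, standard error 0.24, adjusted p = 4.48e-05 from limma), with no overlap between the groups. Prdm1, a transcription factor of plasma cells that other leukocytes and colon epithelium also use, rose by 1.11 (0.86 and not called without B3). Among 10 mast cell genes, the histamine-making enzyme Hdc rose by 1.30, a call lost without B3 (0.84), and the growth factor receptor Kit changed by -1.16, a call lost without B4 (-0.93) and with B2 and B3 alone (-0.65). Kit also marks the pacemaker cells of the gut wall, so it does not mark mast cells alone.

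Most genes that interferon gamma induces were called higher. Of 14 measured members 11 rose and 0 fell, the median log2 fold change was 1.65, and all 14 stood above 0. Iigp1, an immunity-related GTPase, had 7.76, 10.41, 9.15 and 8.73 in acute colitis and 5.28, 5.25, 5.31, 5.0 and 5.04 in controls (log2 fold change 3.84, standard error 0.46, adjusted p = 1.31e-06 from limma). Gbp5 and Gbp4 encode guanylate-binding proteins, which attack the vacuoles of intracellular microbes. Gbp5 had 6.10, 10.26, 8.37 and 7.60 in acute colitis against 4.88 to 5.03 in controls (3.13, standard error 0.45, adjusted p = 1.02e-05 from limma). Gbp4 had 7.04, 11.02, 9.03 and 8.51 in acute colitis against 5.66 to 6.20 in controls (3.01, standard error 0.47). Both follow the order B3, B4, C3, B2 from high to low. Without B3 the log2 fold change was 2.40 for Gbp5 and 2.30 for Gbp4, and without B2 3.79 and 3.62. Ifi205, an interferon-induced DNA sensor, had 7.21, 10.89, 8.37 and 8.32 in acute colitis against 5.27 to 5.88 in controls, a log2 fold change of 3.01 (2.28 without B3).

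Promoters of the raised genes were searched for the interferon-stimulated response element (ISRE), the site that interferon regulatory factors and the complexes of STAT proteins with them bind, sought on both strands as GAAA, then any 2 bases, then GAAA. The 250 bases before each transcription start were taken from RefSeq (GRCm38.p6), and 2.98% of 32851 such promoters held the motif. Of the 20 largest rises 16 had a promoter in the table, and 5 of these held it: Cxcl10, Gbp5, Ifi205, Saa3 and Mmp13. Of the interferon gamma genes called higher, 7 had promoters in the table, 8 in all, and 5 of the 8 held the motif, those of Gbp3, Gbp5, Gbp7, Irgm1 and Socs1. The kappaB consensus, also searched, was in 3 of the 16 and 2 of the 8 promoters, beside 7.25% of all promoters, and the CArG box in 0 of either set, beside 1.47%. Promoters of smooth muscle genes called lower were searched too. Of 7 such promoters 2 held the kappaB consensus, 1 the CArG box and 0 the ISRE, so the kappaB consensus was not particular to raised genes. The windows of Cxcl10, Gbp5, Irgm1 and Socs1 are printed because they show a single motif and overlapping ones in genes that rose. Capitals mark the motif, read 5′ to 3′ on the strand of the gene. In Gbp5 the motif reads on the opposite strand. In Irgm1, a GTPase that rose by a log2 fold change of 1.88, and Socs1, a feedback inhibitor of interferon signalling that rose by 1.21, 2 motifs overlap. A match describes the letters only.
Cxcl10, chr5:92348890-92349139, minus strand, motif beginning 213 bases before the start: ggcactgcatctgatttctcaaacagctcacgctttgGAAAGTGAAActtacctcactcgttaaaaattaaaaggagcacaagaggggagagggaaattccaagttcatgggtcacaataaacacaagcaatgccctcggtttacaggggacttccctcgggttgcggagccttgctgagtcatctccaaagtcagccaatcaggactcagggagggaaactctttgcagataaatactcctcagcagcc
Gbp5, chr3:142496684-142496933, plus strand, motif beginning 165 bases before the start: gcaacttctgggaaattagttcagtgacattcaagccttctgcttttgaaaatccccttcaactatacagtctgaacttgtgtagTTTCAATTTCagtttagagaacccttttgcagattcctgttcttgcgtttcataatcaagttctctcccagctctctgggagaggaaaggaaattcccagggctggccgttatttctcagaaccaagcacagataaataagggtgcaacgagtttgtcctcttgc
Irgm1, chr11:48871421-48871670, minus strand, nearest motif beginning 24 bases before the start: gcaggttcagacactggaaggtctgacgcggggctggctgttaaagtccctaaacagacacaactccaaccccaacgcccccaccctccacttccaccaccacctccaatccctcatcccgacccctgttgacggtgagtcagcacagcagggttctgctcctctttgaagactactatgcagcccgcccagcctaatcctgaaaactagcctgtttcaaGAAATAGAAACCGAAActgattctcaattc
Socs1, chr16:10785537-10785786, minus strand, nearest motif beginning 77 bases before the start: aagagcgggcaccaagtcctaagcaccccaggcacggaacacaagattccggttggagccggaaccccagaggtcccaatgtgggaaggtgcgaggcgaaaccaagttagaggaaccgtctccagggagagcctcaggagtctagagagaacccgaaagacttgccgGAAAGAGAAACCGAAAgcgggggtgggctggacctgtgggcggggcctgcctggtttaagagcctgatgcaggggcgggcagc

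Genes known for type I interferon and genes of both antigen presentation pathways rose in part. Of 16 type I interferon genes 6 rose and all 16 stood above 0. Zbp1, a sensor of Z-form nucleic acid, had 7.95, 9.61, 9.16 and 9.20 in acute colitis against 6.58 to 6.99 in controls (log2 fold change 2.16, standard error 0.26, adjusted p = 1.55e-06 from limma). Of 10 genes of MHC class I processing 4 rose, and 9 of the 10 had no overlap between the groups. Tap1, which pumps peptides into the endoplasmic reticulum, had 8.58, 10.25, 9.95 and 9.66 in acute colitis against 7.25 to 7.48 in controls (2.24, standard error 0.32). Psmb8, a subunit of the immunoproteasome, had 7.55, 8.92, 8.94 and 8.51 in acute colitis against 6.15 to 6.48 in controls (2.19, standard error 0.28). Of 7 MHC class II genes 5 rose. H2-Ab1, a chain of the class II molecule, had 9.75, 11.24, 10.82 and 10.67 in acute colitis and 8.58 to 9.32 in controls (1.69), and Cd74, its chaperone, rose by 1.57.

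Acute-phase genes, which the liver is known to make in quantity but which were measured here in colon, rose in 6 of 16 cases. Saa3, a serum amyloid, had 8.53, 11.49, 9.01 and 9.64 in acute colitis and 5.15 to 5.27 in controls. Its controls were close together, and without B3 its log2 fold change of 4.43 was 3.82. Lcn2, which takes iron away from bacteria, had 8.97, 11.78, 9.52 and 9.64 in acute colitis and 5.86 to 6.18 in controls (3.89, and 3.29 without B3). Hp, haptoglobin, had 7.48, 9.01, 7.35 and 7.60 in acute colitis and 5.12 to 5.45 in controls (2.63, standard error 0.34, adjusted p = 3.30e-06 from limma). Serpina3n, a protease inhibitor, had 10.79, 11.87, 11.27 and 10.78 in acute colitis and 8.03 to 8.70 in controls (2.72, standard error 0.26, adjusted p = 8.50e-08 from limma).

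Of 17 feedback genes of NF-kB and STAT3 4 rose, among them Socs3, the inhibitor of gp130 signalling, at 8.0, 9.68, 9.06 and 8.94 in acute colitis against 6.62 to 6.95 in controls (log2 fold change 2.17, standard error 0.27, adjusted p = 2.10e-06 from limma). The other Socs3 probe set, which is dimmer, stood at 0.47 and was not called. Of 12 genes of Toll-like receptors and their adaptors 4 rose (2 without B3), led by Tlr13, which senses bacterial ribosomal RNA, at 1.51. Cd14, the lipopolysaccharide co-receptor and 1 of these 4, rose by 1.30. Of 14 adhesion genes 5 rose. Icam1, the endothelial ligand of neutrophil integrins, had 7.37, 9.77, 8.64 and 8.29 in acute colitis and 6.56 to 7.00 in controls (1.73), and Itgb2, the beta chain of those integrins, rose by 1.83. Of 14 complement genes 2 rose, C4b by 1.24 and C2 by 1.05. The complement count turned on single arrays, at 8 without B2 and 0 without B3. Yet 12 of the 14 stood above 0, with a list median of 0.82. By adjusted p alone, with no fold threshold, 11 were higher and 1 lower.

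Several matrix-degrading enzymes rose, and 0 collagens were called higher. Of 18 matrix metalloproteinases and inhibitors 8 rose and 1 fell. Mmp13, a collagenase, had 7.75, 11.27, 9.90 and 8.11 in acute colitis and 5.67, 5.51, 5.07, 5.31 and 5.29 in controls (log2 fold change 3.89, and 3.22 without B3). Mmp3, stromelysin, had 6.51, 10.88, 8.87 and 7.82 in acute colitis and 4.78 to 5.27 in controls (3.42, standard error 0.52, adjusted p = 2.58e-05 from limma), and stood at 2.63 without B3 and 4.09 without B2. Mmp10, a second stromelysin, had 7.33, 10.30, 8.56 and 8.27 in acute colitis and 5.56 to 5.91 in controls (2.91, standard error 0.41). In all 3 the order of the acute colitis arrays at the top was B3 and then B4. Timp1, an inhibitor of these enzymes, had 6.11, 9.36, 7.29 and 7.25 in acute colitis against 4.99 to 5.32 in controls (2.28, and 1.66 without B3). The member that fell was Timp4, another inhibitor, at -1.41, named after its value was seen. Of 19 collagens 0 rose and 2 fell, while 12 stood above 0 and the list median was 0.11. By adjusted p alone, with no fold threshold, 3 collagens were higher and 6 lower. Of 19 matricellular and wound genes 4 rose (1 without B3) and 1 fell, and by adjusted p alone 9 were higher and 4 lower. Col14a1, a collagen of fibril surfaces, had 7.07, 7.02, 7.05 and 6.53 in acute colitis and 7.92 to 8.30 in controls (-1.21, standard error 0.16, adjusted p = 4.31e-06 from limma). Postn, periostin, had 9.56, 9.82, 9.62 and 9.20 in acute colitis and 10.75 to 10.99 in controls (-1.30, standard error 0.12, adjusted p = 7.87e-08 from limma). Plaur, the urokinase receptor that focuses plasmin at the cell surface, rose by 1.51 (standard error 0.19).

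A minority of the genes of repair signalling were called. Of 9 genes of EGF receptor signalling 2 rose, beside 1.81% of all genes. Of the 9, 4 lay above control with no overlap between the groups, beside 9.66% of all genes. Ereg, epiregulin, had 7.26, 9.94, 8.77 and 7.67 in acute colitis and 5.88 to 6.30 in controls (log2 fold change 2.38, standard error 0.31, adjusted p = 3.20e-06 from limma). Nrg1, neuregulin, rose by 1.22, a call lost without B3 (0.91). Ptgs2, the inducible prostaglandin synthase, had 7.68, 11.36, 9.37 and 8.33 in acute colitis against 7.40 to 8.01 in controls, so that B2 lay within the control range. Its log2 fold change of 1.54 was 0.82 and not called without B3. Hpgd, which breaks prostaglandins down, had 10.55, 9.78, 9.34 and 9.92 in acute colitis and 10.91 to 11.10 in controls (-1.09, and -0.82 and not called with B2 and B3 alone). Sprr1a, a small proline-rich protein of regenerating epithelium, was the member of 12 fetal-like genes that rose, with 9.01, 9.89, 9.51 and 9.39 in acute colitis and 7.06 to 8.41 in controls (1.97).

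**Figure D3:**
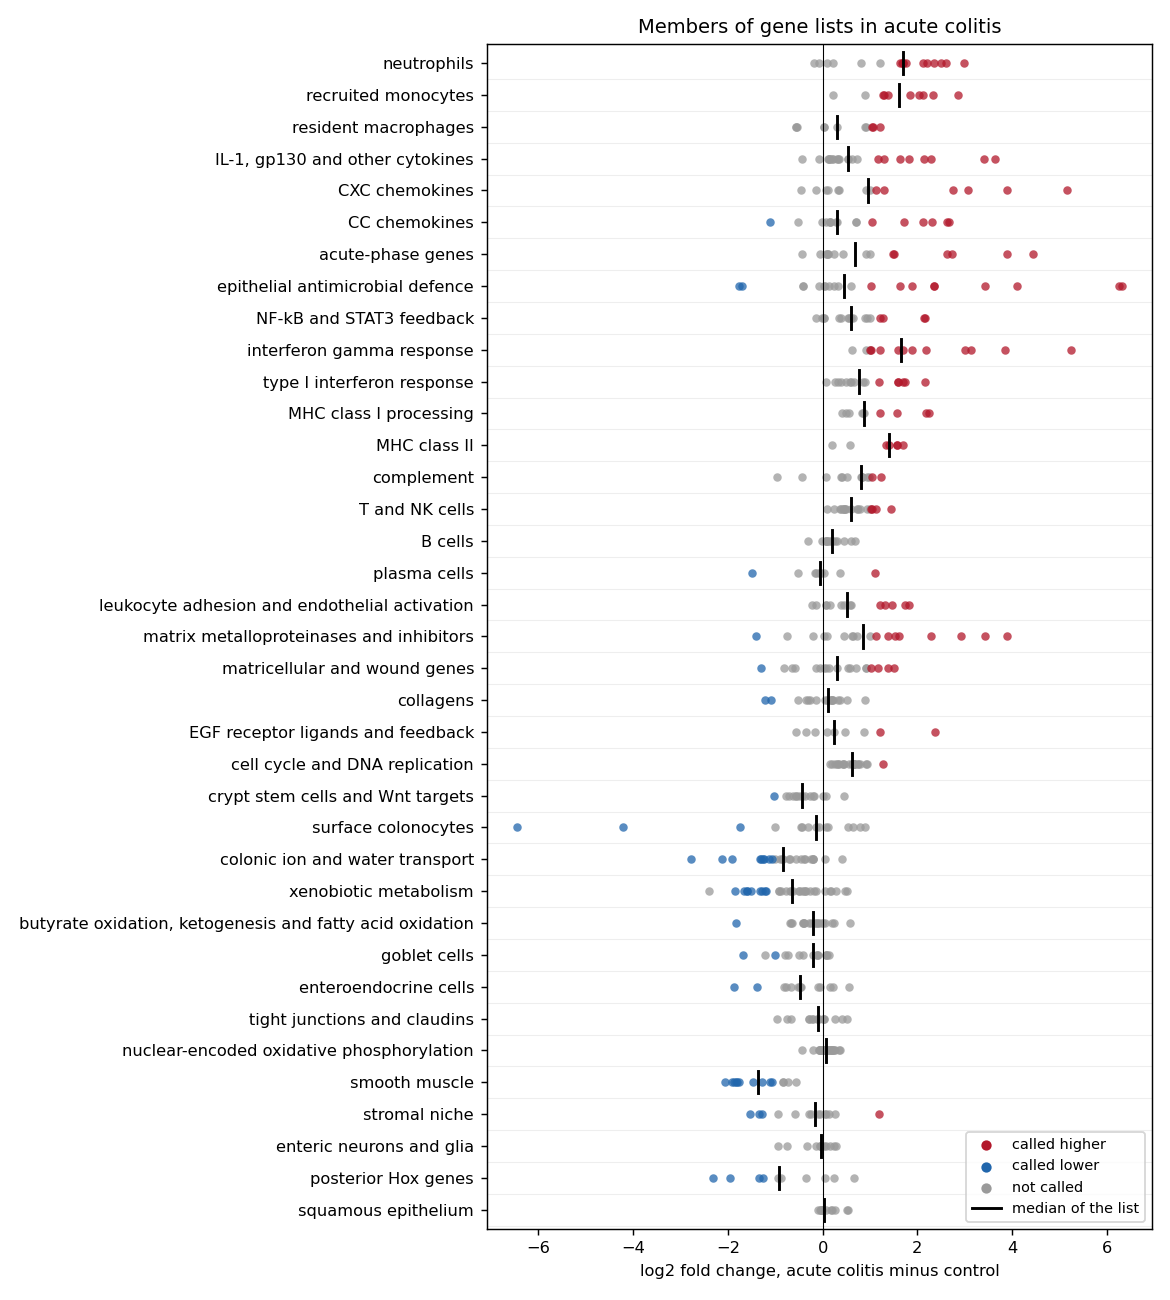
Each point is 1 measured gene of a list, at its log2 fold change of acute colitis minus control, in red where called higher, blue where called lower and grey where not called, and the black tick is the list median. Neutrophil and interferon gamma genes lie almost wholly to the right, with medians of 1.69 and 1.65, and smooth muscle genes wholly to the left, with a median of -1.37.

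Some surface epithelium genes fell steeply, while 0 of the 11 colon epithelium markers were called. Mptx1, a pentraxin, showed the largest fall of any named gene. It had 4.22, 4.36, 6.30 and 5.07 in acute colitis against 11.74, 11.20, 11.63, 11.52 and 11.10 in controls (log2 fold change -6.45, standard error 0.73, adjusted p = 6.63e-07 from limma), 87.3-fold lower. Even B4, the highest acute colitis array, lay far below the lowest control. With B2 and B3 alone the log2 fold change was -7.14. Tgm3, a transglutaminase that cross-links proteins at epithelial surfaces, had 7.04, 6.45, 9.44 and 8.76 in acute colitis against 12.54, 11.75, 12.41, 11.91 and 12.05 in controls (-4.21, standard error 0.64), and -5.39 with B2 and B3 alone. Of 15 surface colonocyte genes only these 2 and Mep1a, a brush border protease, were called, and Krt20, which marks mature colonocytes, had 11.31 to 12.03 in acute colitis against 10.95 to 11.39 in controls. Mep1a at -1.75 lost its call with B2 and B3 alone (-0.51) and was -1.08 without B4.

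Of 25 genes of salt and water transport 9 fell and 0 rose. Trpm6, a magnesium channel, had 6.88, 7.76, 7.84 and 6.93 in acute colitis against 9.52, 8.94, 9.90, 9.38 and 9.59 in controls (log2 fold change -2.12, standard error 0.28, adjusted p = 4.45e-06 from limma). Aqp8, a water channel of surface colonocytes, had 9.35, 9.94, 8.06 and 8.50 in acute colitis against 10.39 to 11.21 in controls (-1.91), with no overlap. Its call was lost with B2 and B3 alone (-1.23). Scnn1a, the alpha subunit of the epithelial sodium channel, had 8.90, 7.79, 8.45 and 9.02 in acute colitis against 9.64 to 10.07 in controls (-1.32, standard error 0.18). Atp12a, a proton and potassium pump, had 5.14, 6.52, 8.88 and 6.40 in acute colitis and 10.56, 8.33, 9.95, 9.04 and 9.62 in controls (-2.77, adjusted p = 0.00689 from limma). B4 overlapped the controls, and without it the log2 fold change was -3.48 (-3.67 with B2 and B3 alone). The count of this list depended on B4, at 4 without that array, and at 5 with B2 and B3 alone. Slc15a1, a peptide transporter, Slc37a2, a sugar phosphate transporter, and Slc34a2, a phosphate transporter, lie outside that list and were among the largest falls, at -2.66, -2.84 and -2.57. With B2 and B3 alone Slc15a1 stood at -3.25.

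Some detoxifying enzymes fell, a few of them in only part of the acute colitis mice. Cyp2c68, a cytochrome P450, had 4.91, 3.64, 4.05 and 4.58 in acute colitis against 8.84, 7.45, 8.31, 7.16 and 7.61 in controls (log2 fold change -3.58, standard error 0.34, adjusted p = 8.50e-08 from limma). Cyp2d12 had 4.14 to 4.75 in acute colitis against 6.58 to 8.23 in controls (-2.88), and Cyp2f2 5.42 to 6.17 in acute colitis against 8.03 to 9.57 in controls (-2.86). For these 3 genes the 4 acute colitis values were close together, with SDs of 0.57, 0.28 and 0.36. The acute values of Cyp2c68 and Cyp2d12 lay below 6.09, the median of all values, and those of Cyp2f2 near it. How far a floor of the array limits these SDs and fold changes was not tested. Genes of the Cyp2c and Cyp2d families are close copies, and how far their probes tell them apart was not tested. Of 32 genes of xenobiotic metabolism 9 fell and 0 rose, but the list mean was 8.86, 8.73, 7.09 and 7.69 in acute colitis against 8.72 to 8.87 in controls. B2 and B3 were thus at control level and B4 and C3 well below it. Cyp2c55, an abundant colonic P450, had 11.34, 11.60, 4.26 and 7.63 in acute colitis and 10.58, 11.28, 11.31, 11.21 and 11.16 in controls, so that it was not called (-2.40, standard error 0.90, adjusted p = 0.055 from limma) and stood at 0.36 with B2 and B3 alone. Abcb1a, a drug efflux pump, had 10.67, 10.59, 8.15 and 8.26 in acute colitis and 10.87 to 11.29 in controls (-1.65, and -0.44 and not called with B2 and B3 alone). Maob, a monoamine oxidase, had 7.79, 7.34, 6.44 and 6.05 in acute colitis and 8.41 to 9.22 in controls (-1.85), with B2 and B3 also below every control, at -1.20 with those arrays alone. The number of falling members was 4 with B2 and B3 alone, 13 without B2 and 14 without B3. With B2 and B3 alone 2 members were called higher. The division follows the array set, and the part of the array set in it was not tested, since no source names what the set is.

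**Figure D4:**
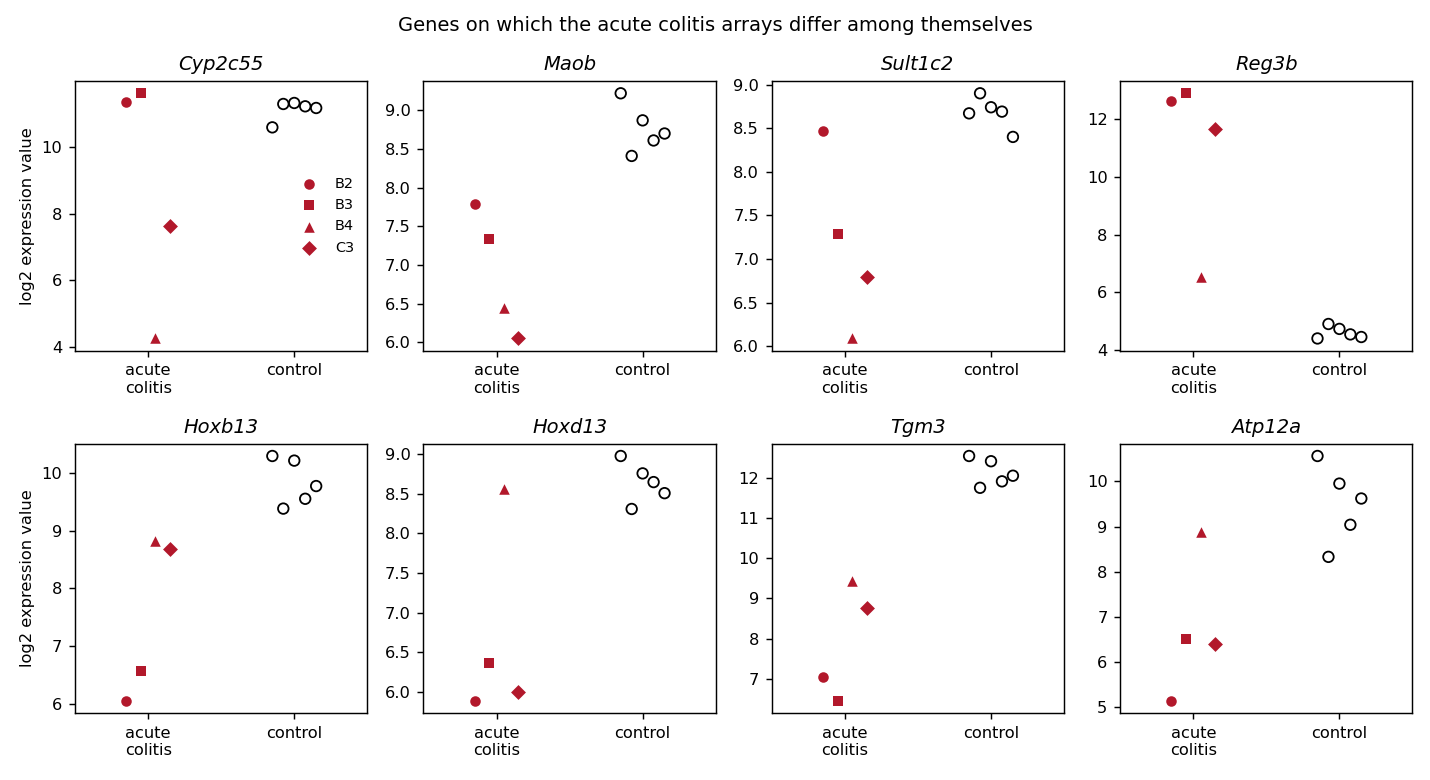
Log2 expression values of 8 genes in the 4 acute colitis arrays (red symbols, left of each panel) and the 5 control arrays (open circles, right). Cyp2c55 is at control level in B2 and B3 and falls to 4.26 in B4, Hoxb13 is lowest in B2 and B3, and Reg3b is low only in B4 among the acute colitis arrays.

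Few genes of secretory cells and the crypt base passed the fold threshold. By adjusted p alone, with no fold threshold, 5 of 15 goblet cell and 8 of 15 enteroendocrine genes were lower. By that rule 10 of 15 stem cell and Wnt target genes were lower and 1 was higher. The rule called 15.4% of all genes lower. Of 15 goblet cell genes 2 fell, and Clca1, a protease that goblet cells release with mucus, had 11.74, 11.17, 10.15 and 11.68 in acute colitis against 12.76, 12.79, 12.98, 12.92 and 12.85 in controls (log2 fold change -1.67, standard error 0.19, adjusted p = 6.88e-07 from limma). The second, Bcas1, at -1.01, lost its call with B2 and B3 alone and without B3, B4, A1 or A5, with values from -0.71 to -0.98. Sycn, known from secretory granules of the pancreas, was high and very even in the control colons. It had 10.38, 9.16, 9.85 and 10.22 in acute colitis against 12.60, 12.69, 12.71, 12.79 and 12.73 in controls (-2.80, standard error 0.22, adjusted p = 1.15e-08 from limma). Of 6 measured genes of exocrine pancreas only Cela1, an elastase, fell, at -1.67. Of 15 enteroendocrine genes 2 fell: Insl5, a hormone of distal L cells, had 7.76, 7.57, 8.82 and 8.66 in acute colitis against 9.88 to 10.26 in controls (-1.87), and Cpe, a prohormone-processing enzyme, fell by 1.38. Of 15 stem cell and Wnt target genes 1 fell. That gene, Lgr5, had 8.08, 6.50, 5.75 and 7.01 in acute colitis against 7.70 to 8.0 in controls, and its log2 fold change of -1.02 lost its call without B3 (-0.91), B4 (-0.66), A1 or A5 (-0.99 each) and with B2 and B3 alone (-0.57).

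Cell cycle genes pointed upward but rarely passed the fold threshold. All 23 stood above 0, 13 had no overlap between the groups, and 1 was called. Rrm2, which makes deoxynucleotides, had 8.21, 8.83, 9.40 and 8.81 in acute colitis and 7.28 to 7.72 in controls (log2 fold change 1.27, and 0.98 and not called with B2 and B3 alone). By adjusted p alone, with no fold threshold, 17 of the 23 were higher. That rule called 4035 of all probe sets higher (11.4%). Of 20 genes of butyrate and fatty acid oxidation 1 fell, the coactivator Ppargc1a, at 8.49, 7.33, 7.67 and 7.52 in acute colitis against 9.30 to 9.85 in controls (-1.82, standard error 0.24, adjusted p = 3.26e-06 from limma). Of 27 nuclear-encoded subunits of oxidative phosphorylation 0 were called, with log2 fold changes from -0.43 to 0.37. Tight junction genes were not called either, 0 of 16. Among them Cldn8, a sealing claudin of the distal colon, had 8.92, 7.95, 9.41 and 9.66 in acute colitis against 9.71 to 10.28 in controls (-0.96, adjusted p = 0.061 from limma). It was called lower without C3 (-1.19), with the array set as a covariate (-1.40) and with B2 and B3 alone (-1.51), so that the list then had 1 member lower.

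Contractile genes of smooth muscle stood lower. All 14 contractile genes were below control with no overlap in any of them, 10 were called lower, and the list median was -1.37. Synm, synemin, an intermediate filament protein, had 7.85, 7.30, 7.20 and 6.96 in acute colitis against 9.09, 9.66, 9.43, 9.59 and 9.23 in controls (log2 fold change -2.07, standard error 0.18, adjusted p = 2.12e-08 from limma). Actg2, the actin of gut smooth muscle, had 10.11, 9.42, 8.96 and 9.0 in acute colitis against 10.93, 11.43, 11.33, 11.41 and 11.34 in controls (-1.91, standard error 0.17). Des, desmin, had 10.85, 10.20, 10.03 and 9.24 in acute colitis against 11.63 to 12.18 in controls (-1.87). B2 was the nearest to the controls in each. The list mean was 9.11, 8.79, 8.54 and 8.28 in acute colitis and 9.86 to 10.21 in controls. The neutrophil list mean was lowest in the same array, and whether the 2 are linked was not tested. Of 12 genes of enteric neurons and glia 0 were called, the lowest being Snap25 at -0.95, which was 7.29 to 7.57 in acute colitis and 8.33 to 8.39 in controls.

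Stromal signals split in direction. Of 14 genes 3 fell and 1 rose. Bmp2, which restrains crypt growth, had 7.36, 8.18, 7.61 and 7.20 in acute colitis against 9.37, 9.11, 9.49, 8.87 and 8.79 in controls (log2 fold change -1.54, standard error 0.24, adjusted p = 3.38e-05 from limma). Chrdl1, a binding protein of BMPs, fell by 1.34 and Dpt, a matrix protein, by 1.27 (-0.87 and not called with B2 and B3 alone). Grem1, an antagonist of BMPs, had 8.71, 10.30, 9.81 and 9.57 in acute colitis against 8.20 to 8.56 in controls, and its log2 fold change of 1.19 lost its call without B3 (0.95). Hmcn1, a basement membrane protein, was among the largest falls at -2.31, with 6.94, 5.65, 6.85 and 6.91 in acute colitis against 8.34 to 9.35 in controls. The array holds 77 probe sets for it, of which 56 were lower, 0 higher, and the median log2 fold change was -1.43.

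**Figure D5:**
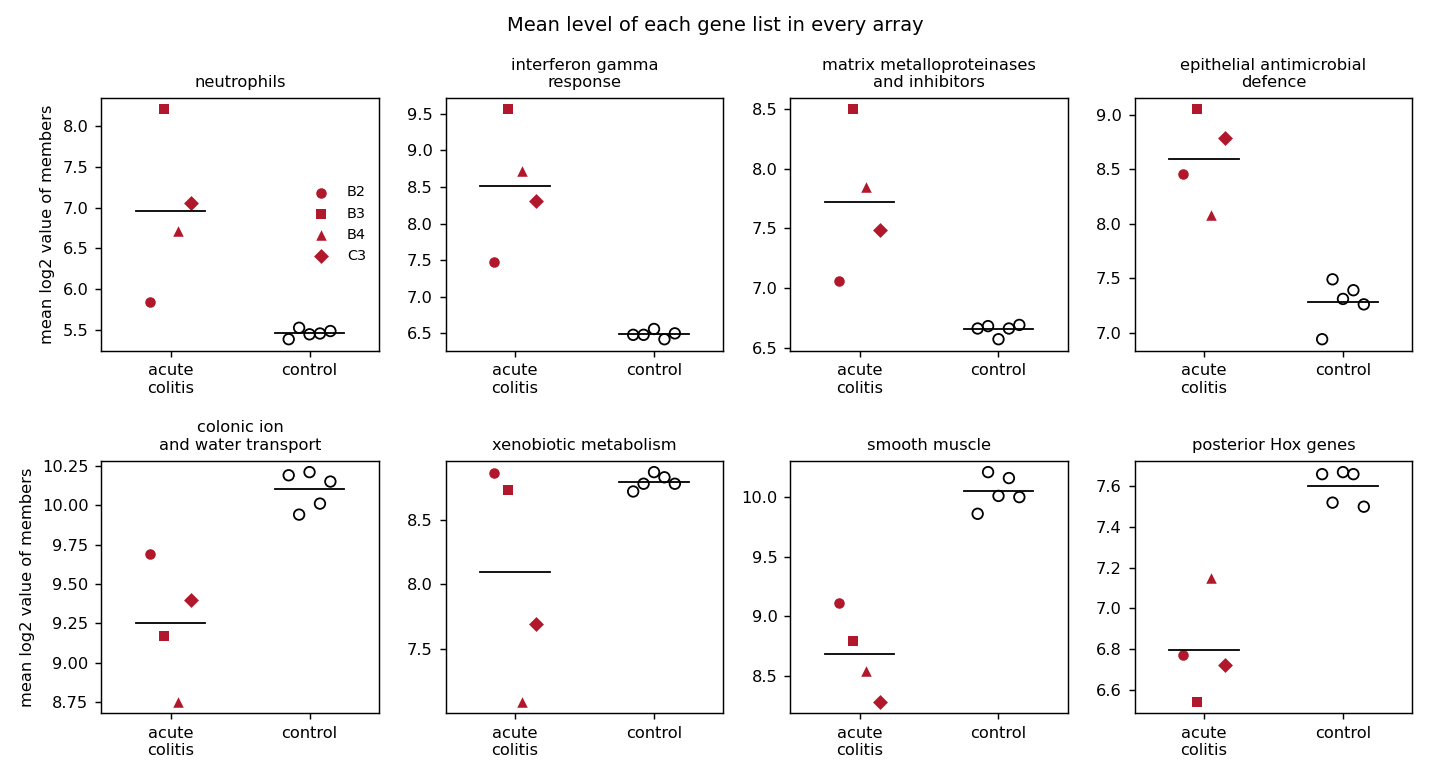
Mean log2 value of the measured members of 8 gene lists in each acute colitis array (red symbols) and each control array (open circles), with black lines at the group means. B3 is highest and B2 lowest for neutrophil, interferon gamma and metalloproteinase genes, while B2 and B3 are at control level for xenobiotic genes.

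Some genes that mark position along the gut differed between the groups and within acute colitis. Posterior Hox genes, whose group 13 members are known to be used in the most distal gut, fell in 4 of 10 cases. With B2 and B3 alone 5 were lower and 1 was higher. Hoxb13 had 6.05, 6.57, 8.82 and 8.69 in acute colitis against 10.29, 9.38, 10.21, 9.55 and 9.77 in controls (log2 fold change -2.31, standard error 0.55, adjusted p = 0.00282 from limma), and -3.53 with B2 and B3 alone. Hoxd13 had 5.88, 6.36, 8.56 and 5.99 in acute colitis against 8.98, 8.31, 8.76, 8.65 and 8.51 in controls (-1.95). Its B4 value lay within the control range, so that the log2 fold change was -2.57 without B4, and the call was lost without B2 (-1.68) or C3 (-1.71). Hoxd11 had 6.04, 6.44, 7.54 and 5.98 in acute colitis against 7.80 to 7.90 in controls (-1.35, standard error 0.31), and Hoxd10 changed by -1.25, a call lost without C3 (-0.99). The methods place the tissue in the distal colon but give no exact position for each mouse, and its part in the values of genes that vary along the colon was not tested.

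Acute colitis was also set against colon 2 weeks after the same exposure. The acute colitis arrays are shared with the first comparison. Against 1 cycle DSS, 70 probe sets were higher in acute colitis (0.197%) and 177 lower (0.498%), or 58 genes (0.291%) and 106 genes (0.532%). These counts turned on single mice: without acute array B2 they were 201 and 257 probe sets, without B3 29 and 182, and without 1 cycle array J1 34 and 162. Lrg1, among the largest rises over control, had 9.92 ± 1.14 in acute colitis (SD, n = 4) against 7.20 ± 0.35 after 1 cycle (SD, n = 5), a log2 fold change of 2.73 (adjusted p = 0.00166 from limma). With acute arrays B2 and B3 alone Lrg1 was not called (2.01). Il11 and Ereg were also higher, each by a log2 fold change of 1.67. Both of these calls were lost when the groups compared were fitted alone. Of the lists, 5 of 23 cytokines, 5 of 18 metalloproteinases and inhibitors, 4 of 17 neutrophil genes and 3 of 14 interferon gamma genes were higher in acute colitis than after 1 cycle.

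Some genes raised over control were not called against the colon after 1 cycle, and a p that misses the threshold does not show equal levels. Reg3b had 10.93 ± 2.97 in acute colitis and 11.04 ± 1.09 after 1 cycle (log2 fold change -0.11, standard error 0.84). Without B4 that difference was 1.35 and without B3 -0.77, neither of them called. H2-Ab1 had 10.62 ± 0.63 in acute colitis and 10.92 ± 0.35 after 1 cycle (-0.30). Of the 7 class II genes 0 were higher in acute colitis than after 1 cycle and 1 was lower, H2-Ob, at -1.62, named after its value was seen. Its call was lost without C3 (-1.47), with the array set as a covariate (-1.60) and with the low array set alone (-1.65). Mptx1 was lower in acute colitis, at 4.99 ± 0.95 against 8.93 ± 1.96 after 1 cycle (-3.95, adjusted p = 0.00175 from limma, and -4.80 without 1 cycle array K3). That call was lost when the groups compared were fitted alone (adjusted p = 0.0886 from limma). Of the 14 smooth muscle genes 7 were lower in acute colitis than after 1 cycle, Actg2 with 9.37 ± 0.53 against 10.99 ± 0.11 after 1 cycle (-1.61, adjusted p = 1.35e-06 from limma). Lymphoid markers differed as well, with 10 of 15 B cell genes and 6 of 10 plasma cell genes lower in acute colitis than after 1 cycle. Jchain differed by a log2 fold change of -3.23 (adjusted p = 2.71e-09 from limma). Ms4a1, the surface protein CD20 of B cells, differed from 1 cycle by -1.88 on the log2 scale (adjusted p = 0.0231 from limma). That call was lost without C3 (-1.70) or without 1 cycle array K1 (-1.70), with the array set as a covariate (-1.68) and with the low array set alone (-1.76). The mean of Ms4a1 was 5.44 in acute colitis, 5.13 in controls and 7.33 after 1 cycle.

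Other tissues that could be cut out along with the colon were checked by their markers. Of 12 genes of squamous epithelium, 8 of skeletal muscle, 8 of small intestine and 7 of adipose tissue, 0 were called in each list. The adipose list mean was 6.62, 6.65, 6.00 and 5.69 in acute colitis and 6.18 to 7.01 in controls. Of 15 clock genes 0 were called, with a list median of -0.51. Control A1 had the highest clock list mean, 8.36, beside 7.45 to 7.62 in the other controls and 7.12 to 7.5 in acute colitis. Platelet genes (0 of 6), eosinophil genes (0 of 5) and red cell genes (0 of the 2 measured) were not called.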

How the data were processed

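RNA of 1 colon sample per mouse was hybridised to Affymetrix Mouse Gene 1.0 ST arrays. The authors background-corrected, quantile-normalized and summarised the probes by RMA, and the deposited log2 values per probe set were used as they are. The submitters' processing notes name R 2.12.2.

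All 29 arrays in 6 groups were fitted together with limma 3.58.1 in R 4.3.3, and acute colitis minus control and acute colitis minus 1 cycle DSS were taken as contrasts. A call needed a fold change above 2 and a Benjamini-Hochberg adjusted p under 0.05, with adjustment across the 35511 probe sets. Of these, 21789 carried 1 gene symbol, 1621 several and 12101 none in the platform annotation, which can be old. A gene was represented by its brightest probe set. P-values rest on mice within this series. They and the standard errors use, for each probe set, a spread shared by the 6 groups. Where acute colitis mice differed more among themselves than other mice, that spread is narrower than theirs. On simulated data with 200 probe sets changed 3-fold, and 200 changed 4-fold, 98.5% of each were recovered. The simulation gave all groups the same spread and drew each array independently. In the data the spread could differ, as for Il1b, with an SD of 1.68 in acute colitis and 0.09 in controls. The recovered share therefore does not describe such genes. The number of arrays limits the precision.

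Named genes were the 20 largest rises and falls without overlap between the groups and, from each list, the 4 genes at most that changed by the largest amount, with defining markers. Exceptions are named as chosen after their values were seen, and genes named for a promoter motif were also chosen so. The members and lists were chosen with earlier results of these data known. Alternatives changed the samples, weights, prior, filter, normalization, thresholds and array set, and left out each array in turn.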

Additional observations from a re-analysis of the deposited data

Results flagged for a closer look

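Among 116 named genes, 232 groups of 4 or 5 arrays were checked for an array far from the rest of its group, and 11 were flagged. Chance flags about 1 in 20 groups. 5 were acute colitis arrays. B3 stood apart for Chil3 (8.59), Hp (9.01) and Hmcn1 (5.65), B2 for Ido1 (8.70) and C3 for Col14a1 (6.53). The other 6 were control arrays, 4 of them A1, which stood apart for Actg2 (10.93), Chrdl1 (7.84), Cyp2c55 (10.58) and Mmp3 (4.78). Control A2 was low for Lcn2 (5.86) and control L2 for Timp1 (4.99). What sets these arrays apart was not tested.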

How the results depend on the processing

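Counts against control were 489 higher and 496 lower. They were 217 and 267 with limma's treat against a fold change of 1.5, and 4035 and 4105 by adjusted p alone. Leaving out 1 array gave 365 to 646 higher and 413 to 676 lower. Against 1 cycle DSS the counts were 70 higher and 177 lower. They were 5 and 102 with the compared groups fitted alone, 30 and 114 with the low array set, 0 and 60 with treat, and 1089 and 949 by adjusted p alone. The array set as a covariate gave 46 higher. Leaving out 1 array gave 29 to 201 higher and 139 to 257 lower. Of 109 named genes called against control, 73 kept their call under every alternative run. The settings that lost most calls were treat (34), the low array set (16), leaving out B3 (14) and the array set as a covariate (10). Cyp2c55, not called, changed sign to 0.36 with the low array set, and H2-Ob, also not called against control, ranged from -0.01 to 0.41 as 1 array was left out. The cause was not tested in any of these cases. No paired analysis was possible because each mouse belongs to 1 group and the labels pair no mice across groups. With 4 and 5 arrays, 1 mouse can decide a call, and array set and mouse cannot be told apart within acute colitis.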
